A study of Rattus norvegicus with 18 samples.

Results

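Entries of the liver miRNA miR-122 and of the liver and gut miRNAs miR-192, miR-194 and miR-215 were followed in gastrocnemius muscle of male Brown Norway rats. The members were chosen by name, as every entry of the count table called miR-122, miR-122b, miR-192, miR-194 or miR-215 in any arm, and 7 of the 909 entries matched, 3 of miR-122 and 4 of miR-192 and miR-194. rno-miR-215 was not analysed here, so that 5 of the 6 names listed at the outset were measured, and rno-miR-192-3p and rno-miR-194-3p were added by the same rule. The miR-122 names had been selected on their higher counts in old than in young muscle of these same libraries. All values against young rats are therefore given as a description and without a p-value.

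The groups were young AL (6 months old, fed ad libitum), old AL (28 months old, fed ad libitum) and old CR (28 months old, fed 55% of the ad libitum intake from 2 months of age), with 6 rats and 6 libraries in each. The rats were of a single inbred strain, and no CR group of 6 months is among these libraries, so the effect of CR without age cannot be read from them. The question put to the data was how the 3 groups compare and whether miR-122 follows the other liver miRNAs from library to library. The libraries held 34940346 to 83110905 counts, and values are CPM, the counts of an entry relative to the size of its library, after TMM scaling, with factors from 0.656 to 2.078, both in old AL. The striated muscle miRNAs, which mark the labelled tissue, summed to between 164541 and 546089 CPM in a library. In whole muscle, fewer cells of a type and less RNA per cell cannot be told apart.

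A miRNA guides a silencing complex to messenger RNAs through its seed, bases 2 to 8 from the 5′ end, and is cut from a hairpin whose other arm is usually degraded. miR-122 is the dominant miRNA of hepatocytes, is known for its role in cholesterol and lipid metabolism, and circulates in blood, where it serves as a marker of liver injury. miR-192, miR-194 and miR-215 are expressed in liver, intestine and kidney and come from a pair of clusters that each make 1 copy of miR-194.

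The mature sequences below (RefSeq, GRCr8) show which members could be read as one family, with the seed in capitals.
rno-miR-122-5p: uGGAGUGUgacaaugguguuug
rno-miR-122-3p: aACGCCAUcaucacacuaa
rno-miR-192-5p: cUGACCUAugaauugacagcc
rno-miR-215: aUGACCUAugauuugacagaca
rno-miR-194-5p: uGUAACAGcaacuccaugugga
Among 693 rat mature names of that table, no other carried the seed of rno-miR-122-5p or of rno-miR-194-5p, whereas rno-miR-192-5p and rno-miR-215 shared the seed UGACCUA and 18 of their first 21 positions. rno-miR-194-5p read the same from the Mir194-1 and Mir194-2 hairpins, so its counts cannot be split between the loci. In the RefSeq annotation 100 bases lay between the Mir194-2 and Mir192 hairpins and 191 bases between Mir194-1 and Mir215, in both cases on the same strand. rno-miR-122b is a separate entry of the table. No entry reaching 100 counts in a library shared its counts with a member, within 10% or 2 counts in all libraries where that entry was counted. This check finds near-equal counts only, and cannot find an entry that holds a fixed part of a member's reads. rno-miR-192-3p and rno-miR-194-3p had too few counts for this check.

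rno-miR-122-5p, the guide arm, was present in all 18 libraries and had the most counts of the miR-122 entries. In young AL it ran from 0.549 CPM (38 counts) through a median of 7.16 to 39.1 CPM (2597 counts), with a mean of 12.6 ± 15.1 CPM (SD, n = 6). In old AL it ran from 49.2 through a median of 197 to 770 CPM, with a mean of 255 ± 265 CPM (SD, n = 6). In old CR it ran from 101.1 through a median of 152 to 185 CPM, with a mean of 146 ± 30.3 CPM (SD, n = 6). Every library of both old groups lay above every young AL library, and all 6 old CR libraries lay inside the range of old AL. The lowest young values were 1.34, 0.549 and 2.35 CPM in replicates 1, 2 and 4, and the others were 20.0, 12.0 and 39.1 CPM in replicates 3, 5 and 6. Replicates 1 and 2 carry library numbers 19 and 20, apart from those of the other libraries, and what else set them apart was not tested. In old AL the highest value was that of replicate 9 and the lowest those of replicates 8 and 11, at 49.2 and 72.1 CPM.

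The width of the groups was unlike. The highest young AL library held 71.2 times the level of the lowest, the highest old AL library 15.7 times and the highest old CR library 1.83 times. On the log2 scale the SD was 2.42 for young AL, 1.41 for old AL and 0.318 for old CR. Under CR the spread was close to that of rno-miR-192-5p and rno-miR-194-5p (0.403 and 0.382 on the same scale), whereas in young AL these had an SD of 0.344 and 0.149. The narrow range under CR was noticed in these values, and the difference in spread was not tested.

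rno-miR-122b followed the same order. The young AL mean was 5.16 ± 6.29 CPM, the old AL mean 116 ± 121 CPM and the old CR mean 64.9 ± 14.3 CPM (SD, n = 6 each), and both old groups again lay above every young AL library. rno-miR-122-3p, the other arm of the hairpin, was a minor species. It was at 0 counts in young AL replicates 1 and 2, a count that allows up to 3, and reached 20 counts or 0.301 CPM in young AL replicate 6. Young AL had a mean of 0.0882 ± 0.124 CPM, old AL of 1.69 ± 1.61 CPM and old CR of 0.989 ± 0.203 CPM (SD, n = 6 each). One old AL library, replicate 8 at 0.228 CPM, fell within the young AL range, and no old CR library did.

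rno-miR-192-5p, which shares its seed with miR-215, differed far less. In young AL it ran from 26.4 through a median of 37.7 to 51.3 CPM, with a mean of 39.3 ± 9.05 CPM (SD, n = 6). In old AL it ran from 34.7 through 57.2 to 107 CPM, with a mean of 63.6 ± 25.9 CPM, and in old CR from 35.9 through 63.8 to 76.3 CPM, with a mean of 59.1 ± 14.8 CPM (SD, n = 6 each). All 3 groups overlapped, and 4 of 6 libraries of each old group lay above every young AL library. rno-miR-194-5p, its cluster partner, lay close together in the 3 groups. Its level was 17.3 to 23.2 CPM in young AL (median 20.1), 13.9 to 34.3 CPM in old AL (median 21.9) and 13.5 to 27.4 CPM under CR (median 23.1). Its means were 20.3 ± 2.08, 23.2 ± 7.11 and 21.8 ± 5.23 CPM in that order (SD, n = 6 each). For both miRNAs the spread was widest in old AL, where replicate 9 was highest and replicate 8 lowest, the same libraries that were highest and lowest in rno-miR-122-5p.

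The other arms of these hairpins were near the limit of detection. rno-miR-194-3p had 2 to 17 counts in a library and means of 0.0891 ± 0.0426, 0.153 ± 0.0484 and 0.0977 ± 0.0471 CPM in young AL, old AL and old CR rats (SD, n = 6 for each). rno-miR-192-3p summed to 7, 7 and 6 counts over the 6 libraries of each group, and no difference was detectable at this depth.

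**Figure D1:**
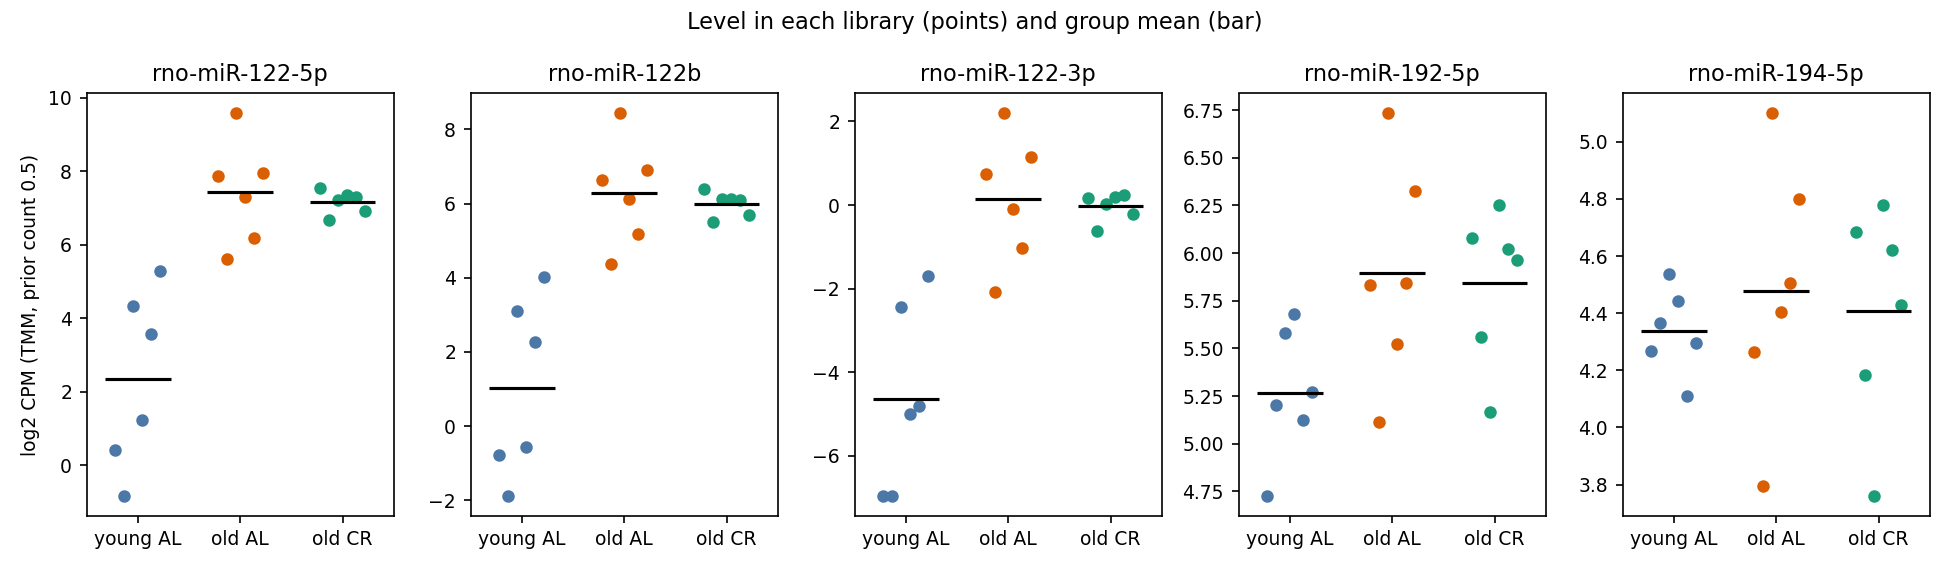
Log2 CPM (vertical axis, TMM scaling, prior count 0.5) of 5 members in young AL, old AL and old CR, with 1 point per library (6 per group) and a bar at the group mean of the log2 values. The vertical axes differ between panels. For rno-miR-122-3p the 2 lowest young AL points are libraries with a count of 0. The miR-122 entries lie higher in old rats, with 1 old AL library of rno-miR-122-3p inside the young AL range, while rno-miR-192-5p and rno-miR-194-5p overlap, and the 6 old CR libraries of rno-miR-122-5p lie close together, with a log2 SD of 0.318 beside 2.42 in young AL.

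Against young AL the fold changes of the miR-122 entries were large and the others small. In old AL against young AL the edgeR fit gave a log2 fold change of 4.36 (SE 1.16) for rno-miR-122-5p, which is 20.5-fold. It gave 4.50 (SE 1.18) for rno-miR-122b and 4.26 (SE 1.13) for rno-miR-122-3p. For rno-miR-192-5p it was 0.71 (SE 0.271), or 1.64-fold, and for rno-miR-194-5p 0.20 (SE 0.212), or 1.15-fold. An entry was called where padj was 0.05 or less and the fold change 1.5 or more. By this rule 0 of the 7 members were called in edgeR beside 3.28% of all 732 entries tested, and 3 in DESeq2, the 3 miR-122 entries, beside 11.5% of all entries. For rno-miR-122-5p and rno-miR-122b every old AL library was above every young one, and 3.55% of all entries separated these groups either way.

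In old CR against young AL the log2 fold change was 3.53 (SE 0.922) for rno-miR-122-5p, or 11.5-fold, 3.65 (SE 0.939) for rno-miR-122b and 3.47 (SE 0.884) for rno-miR-122-3p. It was 0.57 (SE 0.212) for rno-miR-192-5p, or 1.49-fold, and 0.09 (SE 0.172) for rno-miR-194-5p. The 3 miR-122 entries were called by both tools, beside 9.32% of the 730 entries in edgeR and 14.9% in DESeq2, and they did not overlap between the groups beside 5.07% of all entries. The edgeR calls rest on the scaling and on single libraries. There were 0 members called with library totals, with scaling to rno-miR-101a-3p or without young AL replicate 4 or 5, and 1 without young AL replicate 3 or old CR replicate 13, 14, 16 or 18. Both comparisons share the young AL libraries, and nothing is read from these counts because the miR-122 names were selected on them. The 5p and 3p arms of miR-122 come from 1 hairpin, so their entries are not independent measurements. Whether rno-miR-122b is independent of them was not tested.

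Old CR against old AL was not itself used in the choice of members, and it asks whether the level in old muscle differed with diet. Its old AL libraries were used in choosing the miR-122 names, so its values for them are not independent of that choice. rno-miR-122-5p was 0.572-fold in old CR relative to old AL (log2 fold change −0.81, SE 0.556), with a 95% interval from 0.246-fold to 1.33-fold and an edgeR padj of 0.577. Exchanging the libraries between the groups in every possible way, an exact permutation test of mean log2 CPM, gave p = 0.703 (two-sided). Most of the fitted difference came from 1 library, since without old AL replicate 9 the log2 fold change was −0.06 (SE 0.384). The log2 fold change was −0.83 (SE 0.558) for rno-miR-122b and −0.77 (SE 0.572) for rno-miR-122-3p, with edgeR padj of 0.557 and 0.620. rno-miR-192-5p was 0.930-fold (95% interval 0.615 to 1.41, edgeR padj 0.960) and rno-miR-194-5p 0.942-fold (95% interval 0.658 to 1.35, edgeR padj 0.960), with exact permutation p-values of 0.844 and 0.771. rno-miR-194-3p was 0.646-fold (95% interval 0.359 to 1.16, edgeR padj 0.527, exact permutation p = 0.0974), on at most 17 counts in a library. No member passed the test in edgeR or DESeq2, where 0.272% and 2.58% of 736 entries were called. In edgeR 0 of 7 members reached an unadjusted p under 0.05, beside 88 of the 736 entries. No member separated the groups, beside 0.543% of all entries. The intervals leave room for a miR-122 level in old CR of 0.246 of that in old AL as well as for an increase, so that a like level is not shown.

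**Figure D2:**
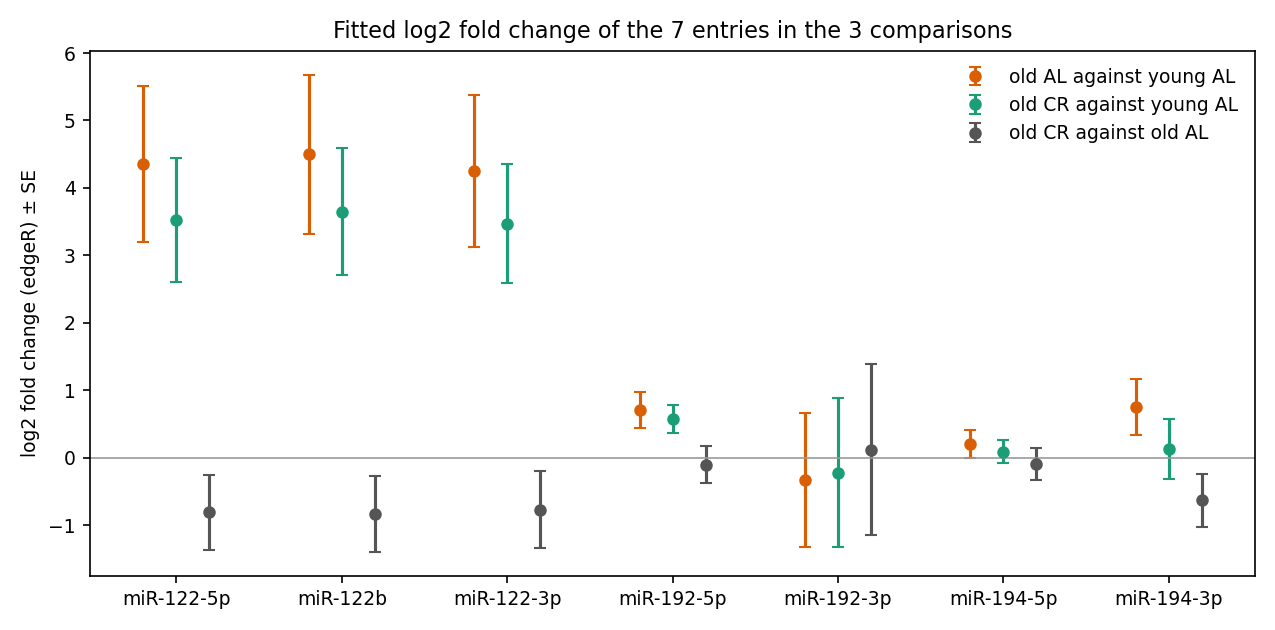
Log2 fold change fitted by edgeR (vertical axis) with its SE (error bars) for the 7 entries (horizontal axis) in 3 comparisons, each of 6 against 6 libraries. The 3 miR-122 entries lie between 3.47 and 4.50 in both comparisons with young AL and between −0.83 and −0.77 in old CR against old AL.

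Ratios of counts within a library do not depend on the scaling between libraries, and they show how the miR-122 entries moved with each other. Over the summed counts of a group, rno-miR-122-5p had 150, 151 and 147 times the counts of rno-miR-122-3p in young AL, old AL and old CR. In single libraries the ratio ran from 112 to 216 in old AL and from 134 to 165 in old CR, while the young AL values, from 102 to 431 where the 3p arm was counted, rested on as few as 1 count of it. rno-miR-122b held 0.410, 0.450 and 0.444 of the counts of rno-miR-122-5p in the 3 groups, with single libraries between 0.284 and 0.505. The lowest of these was young AL replicate 4, with 29 against 102 counts. In old CR against old AL the mean log2 ratio differed by −0.08 for the arms (padj 0.727) and by −0.03 for rno-miR-122b to rno-miR-122-5p (padj 0.727) in the exact permutation test, adjusted over 8 ratio tests. Against young AL the mean log2 ratio of the arms differed by 0.33 in old AL and 0.25 in old CR with a prior count of 0.5 and by 1.28 and 1.21 with a prior count of 2, so the arm proportion in young AL is not settled at this depth. Whether reads of rno-miR-122-5p were also counted under rno-miR-122b was not tested.

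The ratio of rno-miR-122-5p to rno-miR-192-5p shows how far miR-122 stood apart from its fellow liver miRNA. It was 0.338 over the summed counts of young AL, 4.05 for old AL and 2.404 for old CR. Single libraries held 0.0149 to 1.01 in young AL, against 1.26 to 7.21 in old AL and 1.92 to 4.13 under CR, so that every old library exceeded every young one. As miR-122 was selected on higher counts in old muscle of these libraries, this separation is a description only. These ratios compare libraries and not the abundance of the 2 miRNAs, since adapter ligation favours some sequences. In old CR against old AL the mean log2 ratio differed by −0.21 (exact permutation padj 0.727). The ratio of rno-miR-192-5p to rno-miR-194-5p was 1.92, 2.75 and 2.73 over the summed counts of the 3 groups. Its range was 1.37 to 2.36 for young AL, 2.17 to 3.11 for old AL and 2.60 to 2.90 for old CR, where it differed from old AL by 0.02 on the log2 scale (exact permutation padj 0.864). All 6 old CR libraries and 5 of the 6 old AL libraries lay above the young AL range, a difference that was not tested.

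**Figure D3:**
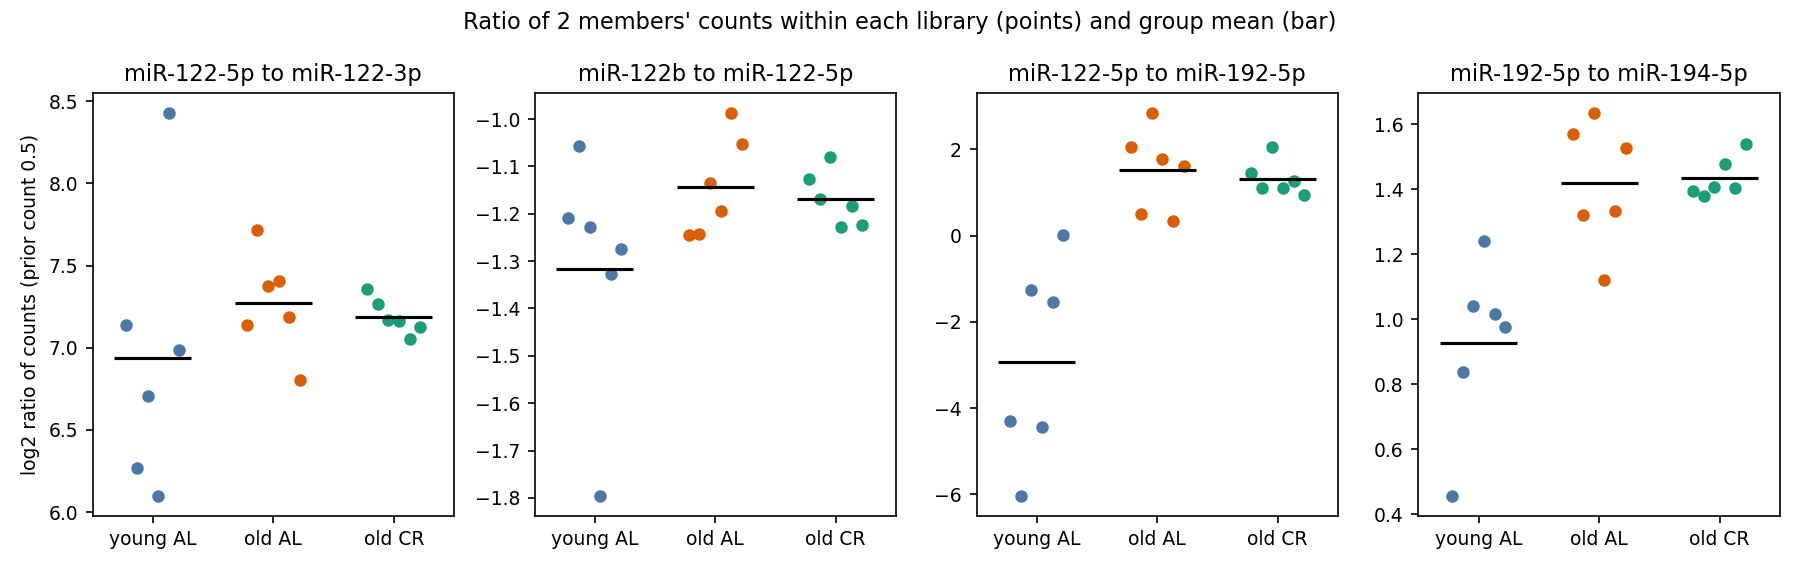
Log2 ratio of the counts of 2 members within each library (vertical axis, prior count 0.5), with 1 point per library (6 per group) and a bar at the group mean, for 4 ratios in young AL, old AL and old CR. The vertical axes differ between panels. The arm ratio spreads most widely in young AL, where 2 libraries have 0 counts of rno-miR-122-3p and their points depend on the prior count, and rno-miR-122-5p to rno-miR-192-5p is above all young AL libraries in every old one. The separation of that last ratio is a description, since miR-122 was selected on higher counts in old muscle.

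Whether miR-122 follows the other liver miRNAs was tested over the 18 libraries after the group means were removed, so that the difference between young and old rats does not enter. rno-miR-192-5p and rno-miR-194-5p, which are neighbours in 1 cluster, moved together, with r = 0.914 and Spearman's rho = 0.917. The permutation p was 1e-05, the smallest that 100000 permutations can give, and 3e-05 adjusted over 3 pairs. Inside the groups their r was 0.681 (young AL), 0.958 (old AL) and 0.989 (old CR), with exact permutation p-values adjusted over 9 tests of 0.218, 0.0313 and 0.0125.

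The values of r were lower for rno-miR-122-5p with either of them, a difference that was not itself tested. With rno-miR-192-5p its group-centred r was 0.458 (permutation p = 0.0503, adjusted 0.0755) and rho 0.486 (p = 0.0570, adjusted 0.0855). With rno-miR-194-5p r was 0.329 (permutation p = 0.0863, adjusted 0.0863) and rho 0.327 (p = 0.157, adjusted 0.157). Neither passed the test, and the outcome rests on the scaling. With library totals in place of TMM, r was 0.605 with rno-miR-192-5p (adjusted permutation p = 0.00752) and 0.551 with rno-miR-194-5p (adjusted 0.00363). With scaling to rno-miR-101a-3p, r was 0.668 (adjusted permutation p = 0.00190) and 0.566 (adjusted 0.0153). The scaling of a library is common to both members of a pair, and its error can raise r. Under these scalings r over all entries was not computed. They therefore cannot decide whether miR-122 follows the others. On linear CPM, an alternative added after the values were seen, r was 0.772 and 0.695 (adjusted permutation p = 0.00802 and 0.0108). On that scale old AL replicate 9 lay farthest from its group mean in rno-miR-122-5p, at 770 beside 255 CPM. The linear r without that library was not computed. Without the 2 libraries farthest from the median of group-centred rno-miR-122-5p, young AL replicates 2 and 6, r was 0.605 and 0.488 (adjusted permutation p = 0.0424 for both).

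Inside the groups r took different values. In old AL, r of rno-miR-122-5p was 0.871 with rno-miR-192-5p and 0.825 with rno-miR-194-5p (exact permutation p = 0.0306 and 0.0458, adjusted 0.0917 and 0.103). In young AL, where rno-miR-122-5p varied most, r was 0.298 and −0.04 (exact permutation, adjusted p = 0.638 and 0.921), and in old CR 0.412 and 0.451 (adjusted 0.545 for both). Whether r differed between groups was not tested. With each library left out in turn, the group-centred r ran from 0.329 to 0.536 with rno-miR-192-5p and from 0.174 to 0.410 with rno-miR-194-5p. Both lowest values were those without old AL replicate 9, the highest old AL library for all 3 members (adjusted permutation p = 0.283 and 0.316).

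**Figure D4:**
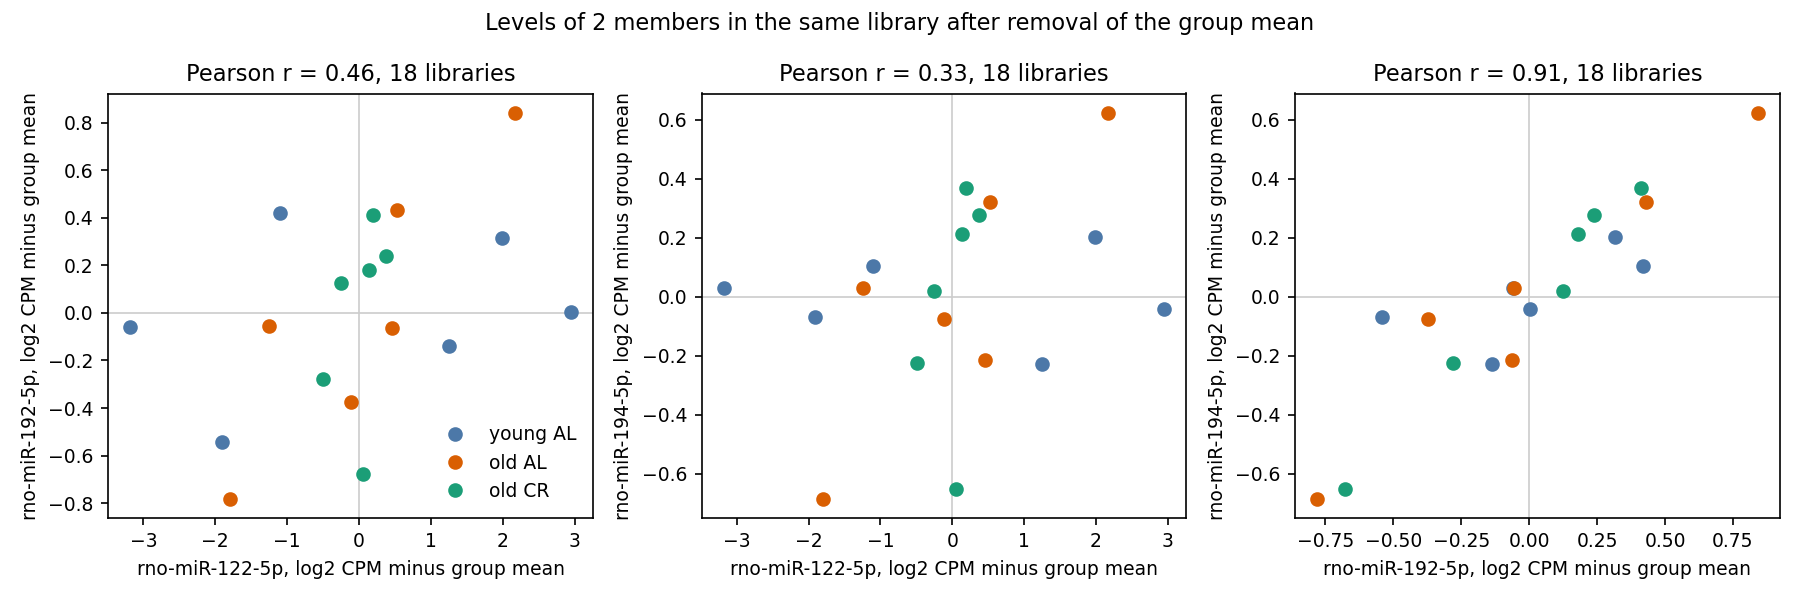
Log2 CPM minus the group mean of 1 member (horizontal axis) against another (vertical axis) in the same library, for 3 pairs over 18 libraries coloured by group. Points of rno-miR-192-5p and rno-miR-194-5p lie along a line (r = 0.914), and those of rno-miR-122-5p scatter widely, most of all in young AL.

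Depth and other liver miRNAs were set beside these relations in 12 further group-centred correlations, added after the counts were seen, of which none passed the permutation test after adjustment. With the total count of the library r was −0.21 for rno-miR-122-5p, 0.131 for rno-miR-192-5p and 0.286 for rno-miR-194-5p (permutation, adjusted p = 0.678, 0.678 and 0.667). With the TMM factor r was 0.113, −0.33 and −0.51 in that order (permutation, adjusted p = 0.678, 0.383 and 0.383). rno-miR-802-5p, a liver and gut miRNA, was barely counted, with 2 counts over all young AL libraries and 13 over each old group. It was found in 2, 6 and 6 libraries of the groups, and its r with rno-miR-194-5p was 0.583 (permutation p = 0.00765, adjusted 0.0918). rno-miR-148a-3p, which is abundant in liver and in many other tissues, had r of −0.15 with rno-miR-122-5p and 0.0199 with rno-miR-192-5p (permutation, adjusted p = 0.678 and 0.945). Its log2 fold change was −0.18 (SE 0.502) in old AL and 0.73 (SE 0.472) in old CR against young AL.

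Among 319 known entries with at least 1 CPM on average, those most like rno-miR-122-5p over the 18 libraries were ranked by r as a description. The libraries share their depth and scaling, and the median r over the 319 entries was 0.0153 with group means removed and 0.0425 with them. With group means removed the highest were rno-miR-139-5p (r = 0.666), rno-miR-1843a-3p (0.624), rno-miR-149-5p (0.604), rno-miR-193b-3p (0.547) and rno-miR-671 (0.517). rno-miR-192-5p was at rank 14 and rno-miR-194-5p at rank 39. With the group means left in, where the difference between young and old used in the choice of miR-122 enters, the highest entries outside the members were rno-miR-598-3p (r = 0.799), rno-miR-200b-3p (0.685), rno-miR-330-3p (0.673), rno-miR-193b-3p (0.666) and rno-miR-200a-3p (0.626). rno-miR-192-5p then stood at rank 3 (r = 0.683) and rno-miR-194-5p at rank 71 (r = 0.308). rno-miR-598-3p, first in that order, ran from 1.27 to 2.42 CPM in young AL, from 1.97 to 5.64 CPM in old AL and from 2.98 to 4.03 CPM under CR, a far smaller range than that of rno-miR-122-5p.

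Markers of other tissues that a muscle sample can hold were counted beside the members. The liver and gut list besides the members (miR-802 and miR-148a, 4 entries) had 3 tested, of which 0 were called in any comparison, with median log2 fold changes of −0.07 in old AL and 0.73 in old CR against young AL, beside medians of 0.06 and 0.08 over all entries. Within it rno-miR-802-5p, on the few counts given above, had log2 fold changes of 2.01 (SE 0.996) and 2.09 (SE 0.901). In old CR against old AL 3 of 3 entries of the list were higher, with a median of 0.54. They were both arms of the miR-148a hairpin, at 0.92 (SE 0.591) and 0.54 (SE 0.612), and rno-miR-802-5p, at 0.13 (SE 0.641). rno-miR-122-5p had −0.81, and −0.06 without old AL replicate 9. Young AL libraries summed to 1214 to 4938 CPM, old AL to 898 to 6479 and old CR to 1755 to 9234, nearly all of it rno-miR-148a-3p. Blood cell lists were higher in old AL than in young AL in 4 of 5 erythroid and 8 of 8 leukocyte entries tested, with medians of 0.62 and 0.78 and 0 called. The erythroid list summed to 316 to 865 CPM, 425 to 1179 and 416 to 748 CPM in young AL, old AL and old CR. Its median sums were 470, 815 and 601 CPM. The leukocyte list summed to 126 to 172, 111 to 611 and 115 to 240 CPM in that order. Its median sums were 159, 141 and 143 CPM, so the median leukocyte sum was not higher in old AL than in young AL. Against old AL, old CR was lower in 5 of 5 erythroid and 8 of 8 leukocyte entries, with medians of −0.50 and −0.27 beside 0.01 over all entries and 0 called. The kidney and epithelium list was higher in 14 of 19 entries in each old group against young AL, with medians of 0.81 in old AL and 1.84 in old CR and 0 called. Its sums were 181 to 236, 178 to 497 and 187 to 2091 CPM in young AL, old AL and old CR, with medians of 201, 204 and 262 CPM. The pancreas list stayed at 0.402 to 3.86 CPM in all libraries, with 2 of 8 entries at 0 in every group. Against young AL, 1 of its 6 tested entries was called higher in old AL and 1 of 5 in old CR. The medians of these comparisons were 0.63 and 1.12. The neural list had 1 of 19 entries called higher in old AL and 9 of 19 in old CR, each against young AL. Its median log2 fold changes were 0.77 and 2.27. Among all entries tested, edgeR called 7 of 732 higher in the former comparison and 30 of 730 in the latter. The neural list summed to 588 to 1033, 407 to 788 and 331 to 740 CPM in young AL, old AL and old CR. The median sums were 678, 478 and 657 CPM, so the summed level was not higher in the old groups. Against old AL, old CR was higher in 16 of 19 entries of the kidney and epithelium list and in 16 of 19 of the neural list, with medians of 0.86 and 1.15 and 0 called. The striated muscle list had 0 of 13 called in any comparison. The part of any of these tissues in the miR-122 levels was not tested.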

How the data were processed

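Small RNA of gastrocnemius muscle was sequenced by the authors in 18 libraries, 1 per rat. Adapters were removed by the authors with Cutadapt 1.2.1, Sickle clipped ends of poor quality, reads shorter than 12 nt were dropped, and miRDeep2 identified known miRNAs and candidates. The submitters' processing notes also name Bowtie2 2.4.0 and Rnor_6.0. The deposited values are raw counts, with 763 entries of known miRNAs and 146 of predicted candidates. How reads matching more than 1 miRNA were counted is not given in the sources used here. All columns matched a sample, leaving 0 unused. Sequences and hairpin neighbours are from RefSeq on GRCr8, another build than that of the files, so no coordinates are given. Of the 7 entries, 6 had a mature sequence there.

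The members and lists were chosen with earlier results of these data known. Entries with at least 10 counts over the 12 libraries compared were tested with edgeR 4.0.16 in R 4.3.3 (TMM, quasi-likelihood test with robust dispersion, Benjamini-Hochberg adjustment over all entries, two-sided). SEs were obtained from the log2 fold change and the F statistic (size over root F). DESeq2 1.42.0, the tool of the study, was an alternative, and it and edgeR calls required padj no higher than 0.05 and a fold change no lower than 1.5. Group-centred correlations of log2 CPM (prior count 0.5) used 100000 permutations within groups, correlations inside a group all 720 pairings and ratios all arrangements, in Python 3.11.15 with SciPy 1.17.1. With 6 against 6 libraries the smallest exact p is 0.00216, and with 720 pairings 0.00278. The pairs planned for the correlations included rno-miR-215, without which 3 remained. Named entries are all members, the 5 known entries most like rno-miR-122-5p by r, with and without group means, rno-miR-101a-3p (the RT-qPCR reference) and the lists, which were liver and gut, pancreas, kidney and epithelium, erythroid, leukocyte, neural and striated muscle. Alternatives were other scaling factors, DESeq2, other filters, a prior count of 2, 1 fit over the 3 groups, known miRNAs only, each library left out, young AL replicates 1 and 2 left out together and, added after the values were seen, linear CPM. A count of 0 allows up to 3 counts, a limit that covers counting error only. The scripts were tested on simulated data.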

Additional observations from a re-analysis of the deposited data

Results flagged for a closer look

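In 33 groups of 6 libraries examined for a single library far from the rest, 1 was found, and chance alone finds about 1 in 20. The log2 ratio of rno-miR-122b to rno-miR-122-5p was −1.80 in young AL replicate 4, below the other young AL libraries, on 29 and 102 counts.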

How the results depend on the processing

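Old CR against old AL left all members uncalled under every alternative run, and the log2 fold change of rno-miR-122-5p ran from −1.02 to −0.06 (adjusted p from 0.317 to 0.998). Over all entries, the 2 calls became 0 with upper-quartile factors, library totals, scaling to rno-miR-101a-3p, no robust estimation or known miRNAs only, 19 with DESeq2 and 22 with DESeq2 without its filters, and ran from 0 to 3 with each library left out. In old AL against young AL the log2 fold change of rno-miR-122-5p stayed between 3.56 and 5.16, yet the 0 members called became 3 with DESeq2 with or without its filters, with a single fit over the 3 groups or with known miRNAs only, and 2 with filterByExpr. With each library left out they ran from 0 to 1, the 1 being without young AL replicate 6. The 24 calls over all entries became 0 with library totals, 3 with scaling to rno-miR-101a-3p, 84 and 99 with DESeq2 with and without its filters, 37 with filterByExpr, 53 with known miRNAs only, and 9 to 20 with each library left out. In old CR against young AL the log2 fold change of rno-miR-122-5p stayed between 2.98 and 4.29. The 3 members called became 0 with library totals or scaling to rno-miR-101a-3p and ran from 0 to 3 with each library left out, being 0 without young AL replicate 4 or 5 and 1 without young AL replicate 3 or old CR replicate 13, 14, 16 or 18. The 68 calls over all entries became 22 with scaling to rno-miR-101a-3p, 109 and 129 with DESeq2 with and without its filters, and 45 to 67 with each library left out. Without young AL replicates 1 and 2 together, the log2 fold change of rno-miR-122-5p was 3.81 for old AL and 2.98 for old CR. The group-centred r of rno-miR-122-5p with rno-miR-192-5p and with rno-miR-194-5p was 0.605 and 0.551 with library totals, 0.668 and 0.566 with scaling to rno-miR-101a-3p, 0.772 and 0.695 on linear CPM and 0.605 and 0.488 without the 2 libraries farthest from the median, all past the threshold. With each library left out it ran from 0.329 to 0.536 and from 0.174 to 0.410, past the threshold without young AL replicate 4 (0.536, the first pair) or 5 (0.490 and 0.384). The r of rno-miR-192-5p with rno-miR-194-5p was 0.849 to 0.961 under all alternatives. The cause of these changes was not tested. For library totals and scaling to rno-miR-101a-3p, r over all entries was not computed, and error in a common scaling can raise r. Replicate numbers are not shared between groups. No paired analysis was possible because each library came from a different rat and each rat belonged to a single group.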
